A study of Saccharomyces cerevisiae with 4 samples.

Results

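The nuclear genes for oxidative phosphorylation were examined in budding yeast with and without CHD1, which encodes a chromatin-remodelling ATPase of the Snf2 family. The group holds 39 named genes of 5816 in each deposited gene table, taken by gene name: 4 of complex II, 9 of complex III, 2 for cytochrome c, 9 of complex IV, 12 of ATP synthase and 3 for NADH dehydrogenases. All 39 were found, and all 39 passed the filter on low counts. Total RNA came from a wild-type Saccharomyces cerevisiae strain and from a CHD1 deletion strain, both in the BY4741 background, an auxotrophic laboratory strain of the a mating type descended from S288C. Cultures were shaken at 30 °C in YPD, which is rich medium with glucose, and were harvested in mid-log phase at an optical density between 0.6 and 0.8. There were 2 libraries of each genotype. The labels do not say whether these came from separate cultures or transformants, and the p-values therefore reflect nothing beyond the differences among these libraries, which may be technical.

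In oxidative phosphorylation, electrons from NADH and succinate pass through ubiquinone, complex III and cytochrome c to complex IV, which reduces oxygen, and the proton gradient so built drives ATP synthase. Budding yeast has no proton-pumping complex I and oxidises NADH with single-subunit dehydrogenases on either face of the inner mitochondrial membrane. Glucose represses most of these genes, the Hap2/3/4/5 complex activates many of them, and oxygen and heme decide between paired isoforms such as COX5A and COX5B. In the cells without CHD1, COX5B, the hypoxic isoform of subunit V of complex IV, and QCR8, a small subunit of complex III, rose, and NDE1, the main external NADH dehydrogenase, fell. The other 36 members did not pass the test. Unless another tool is named, every adjusted p comes from edgeR (quasi-likelihood test), corrected by Benjamini and Hochberg's method over all 5488 genes tested. Errors of log2 fold changes (deletion over wild type) are standard errors, and levels are means ± SD with n = 2.

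The gene tables held 2145684 to 4117998 reads per library. Reads of CHD1 numbered 211 and 396 in the wild-type libraries against 7 and 3 in the deletion libraries, as labelled (log2 fold change -6.40 ± 0.27, adjusted p = 3.34e-11). The 6 markers of a cells summed to 1146 to 1297 CPM (reads per 1e6 reads, scaled by TMM) in each library and the 4 of alpha cells to 17.3 to 25.4. Of the auxotrophic markers of BY4741, MET17 had 0 reads in every library and LEU2 at most 2. URA3 had 29 to 82 reads and HIS3 69 to 104, and the source of these reads was not examined. Replicates of both genotypes differed beyond counting error, and more so in wild type (chi-square per degree of freedom 6.17) than in the deletion (2.5). Of 15 tested markers of glucose depletion and stress, 7 rose and 0 fell in the deletion, against 1.68% and 3.06% of all genes tested. The summed level of the 16 listed was 1060 and 938 CPM in wild type against 1103 and 1350 CPM in the deletion. Most of that sum was ADH2, a glucose-repressed alcohol dehydrogenase that did not pass the test (-0.13, adjusted p = 0.524), and without it the other 15 listed genes summed to 315 and 279 CPM in wild type against 509.8 and 661 CPM in the deletion. Their part in the results below was not tested.

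The promoters of the 3 changed members and of COX5A, the aerobic partner of COX5B, are shown because the regulators treated further on are known to act through such sites. Each window runs on the strand of the gene from 250 bases before to 50 bases after the annotated start, which in this annotation is the start codon, so that any transcribed leader lies inside the window, in the RefSeq R64 assembly (sacCer3). Capitals mark CCAAT, the core of the Hap2/3/4/5 site, and ATTGTT, the core of the site of Rox1, the repressor of hypoxic genes. Both are marked on either strand within the 250 bases. These windows lie at chrXIV:531475-531774 (+ strand) for COX5A, chrIX:154972-155271 (+ strand) for COX5B, chrX:106184-106483 (+ strand) for QCR8 and chrXIII:556426-556725 (- strand) for NDE1.
COX5A: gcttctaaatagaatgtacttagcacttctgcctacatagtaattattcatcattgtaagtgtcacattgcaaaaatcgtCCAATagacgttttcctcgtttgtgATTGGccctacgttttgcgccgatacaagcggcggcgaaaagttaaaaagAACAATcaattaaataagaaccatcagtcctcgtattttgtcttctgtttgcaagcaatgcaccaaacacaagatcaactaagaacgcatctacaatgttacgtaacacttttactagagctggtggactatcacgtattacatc
COX5B: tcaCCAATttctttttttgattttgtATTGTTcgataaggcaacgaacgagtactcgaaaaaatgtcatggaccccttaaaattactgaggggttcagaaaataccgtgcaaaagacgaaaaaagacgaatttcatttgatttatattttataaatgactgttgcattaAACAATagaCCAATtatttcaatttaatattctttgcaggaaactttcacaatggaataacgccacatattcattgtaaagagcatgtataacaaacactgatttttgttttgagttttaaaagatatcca
QCR8: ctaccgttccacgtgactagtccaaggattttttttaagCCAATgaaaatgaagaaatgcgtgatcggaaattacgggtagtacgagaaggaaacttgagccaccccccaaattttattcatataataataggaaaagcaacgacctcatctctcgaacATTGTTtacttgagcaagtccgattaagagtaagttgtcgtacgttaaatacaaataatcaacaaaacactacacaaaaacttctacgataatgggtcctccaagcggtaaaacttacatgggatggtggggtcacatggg
NDE1: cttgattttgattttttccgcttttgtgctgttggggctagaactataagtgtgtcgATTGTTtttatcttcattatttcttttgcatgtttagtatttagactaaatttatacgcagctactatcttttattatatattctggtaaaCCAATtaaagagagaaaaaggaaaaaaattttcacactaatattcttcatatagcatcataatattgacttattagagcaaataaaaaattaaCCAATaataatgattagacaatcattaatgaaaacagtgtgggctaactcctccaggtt
COX5B held 2 CCAAT matches, beginning 247 and 72 bases before the start, and 2 ATTGTT matches, beginning 224 and 81 bases before it. QCR8 had 1 match of each kind. NDE1 had 2 CCAAT matches and 1 ATTGTT match. The COX5B gene is peculiar in that its first annotated exon is 1 base long, so that its intron splits the start codon.

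Across the 39 members the test called 2 genes higher and 1 lower in the deletion, or 7.69% of them, where 4.74% of all genes tested were called (1.68% higher and 3.06% lower). Beyond these calls the members leaned upward by small amounts. The log2 fold change was above 0 in 27 of 39 members (69.2%) against 50.6% of all genes tested, and the median was 0.15 against 0.004. Both deletion libraries lay above both wild-type libraries for 20 members (51.3%), against 24.9% of all genes tested, and below them for 5 (12.8%), against 24.4%. The median stayed above 0 in every fit that was run, at 0.10 to 0.26. It was 0.26 with scaling by total gene counts, which moved the median of all genes to 0.11. DESeq2 called 0 members higher and 1 lower, where it called 1.32% and 5.94% of the genes to which it gave an adjusted p, but it gave none for 24 of the 39, COX5B and QCR8 among them. At an unadjusted p under 0.05, edgeR had 9 members higher and 2 lower, where 8.53% and 11.0% of all genes tested were so.

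The members are short genes, with a median table length of 737 bases against 1479 for all genes tested, and length moved with the fold change. Among all 2018 tested genes under 1200 bases, 58.6% had a log2 fold change above 0 and the median was 0.06, against a median of -0.02 for longer genes. The 27 members under 1200 bases had a median of 0.20 with 22 above 0, and the 12 longer ones a median of -0.05. The part of gene length in the upward lean was not tested. In a bulk culture, more transcripts per cell and more cells that hold the transcript cannot be told apart.

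**Figure D1:**
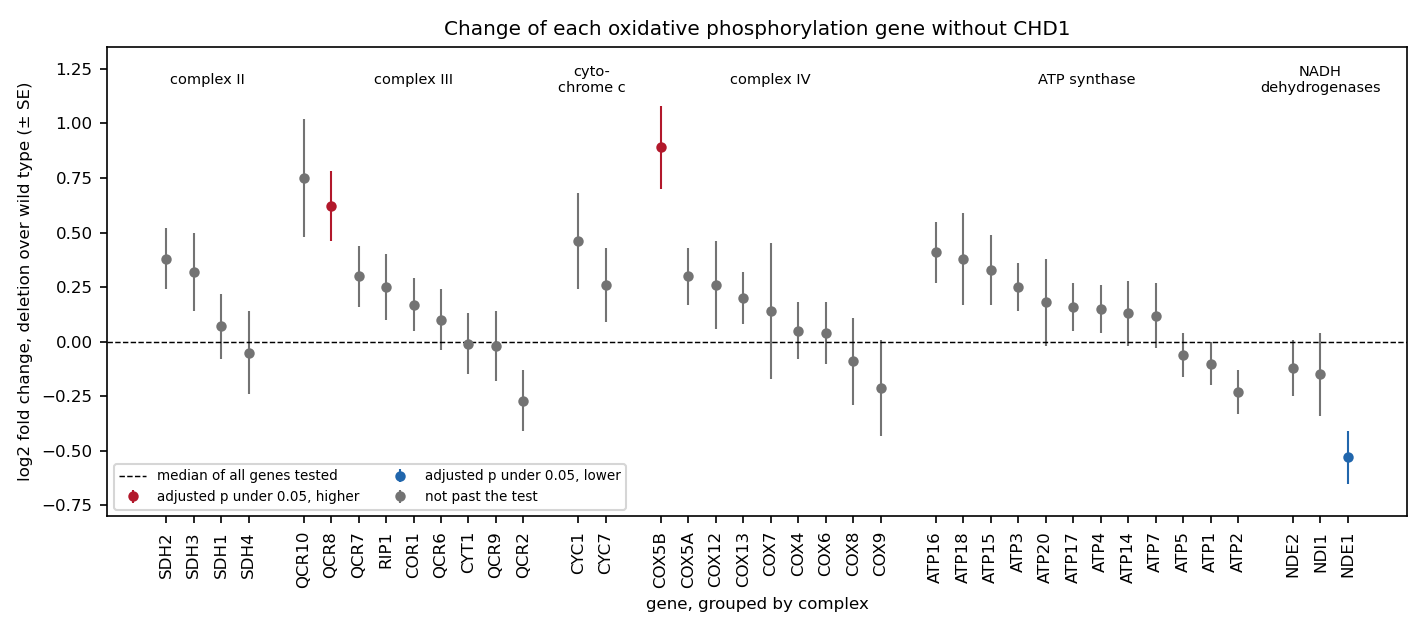
Log2 fold change (deletion over wild type) of each of the 39 genes with its standard error, grouped by complex and ordered by size. COX5B and QCR8 stand as the genes called higher and NDE1 as the gene called lower, while most others lie slightly above the dashed median of all genes.

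Per unit of length, levels spread widely among subunits that assemble into 1 complex. Levels between genes are given as RPKM, that is, CPM per kb of the deposited gene length. In wild type the median member stood at 54.0 RPKM, against 26.6 RPKM for all genes tested, and 35 of 39 members lay above that. ATP synthase had the highest median, 118 RPKM, and the NADH dehydrogenases the lowest, 30.5 RPKM. The highest and lowest subunit differed 3.02-fold in complex II, 7.37-fold in complex III, 5.49-fold in complex IV and 6.07-fold in ATP synthase. The highest and the lowest gene of every complex were the same genes in the deletion as in wild type.

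**Figure D2:**
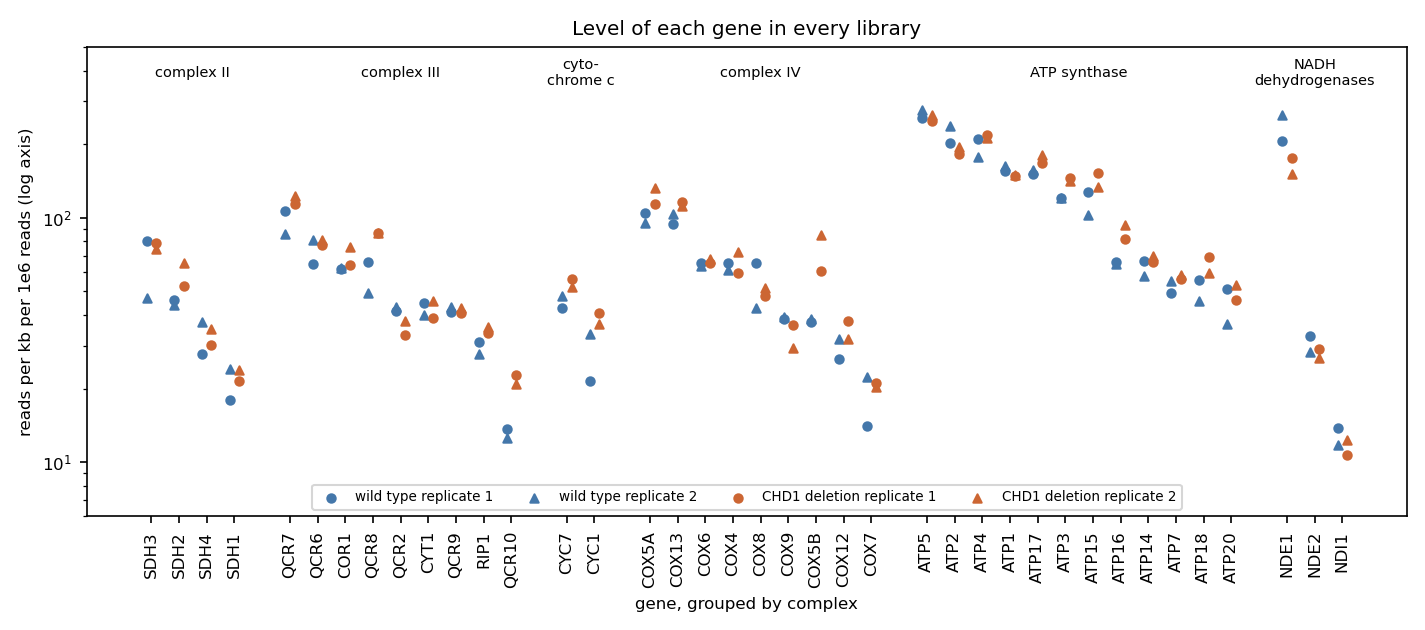
RPKM (log axis) of each gene in each of the 4 libraries, grouped by complex and ordered by the wild-type mean. ATP synthase genes and NDE1 are the highest, and NDI1 and QCR10 among the lowest. The gap between the nearest libraries of the genotypes is widest for COX5B, QCR10 and QCR8.

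The NADH dehydrogenases, which pass electrons from NADH to ubiquinone without pumping protons, were the only group whose median lay below 0 (-0.15), and 0 of its 3 genes lay above 0. This held in every fit that was run, at -0.27 to -0.04. All 3 are long genes, with deposited lengths of 2085 bases for NDE1, 2048 for NDE2 and 1966 for NDI1. The 12 members of 1200 bases or more, these 3 among them, had a median of -0.05. The part of gene length in the low median of the group was not tested. NDE1 (YMR145C, chrXIII:554793-556475, - strand), the major dehydrogenase facing the cytosol side, stood at 432 and 551 CPM in wild type and at 366 and 315 CPM in the deletion. The deletion libraries were both lower, though the wild-type replicates differed from each other by more than the nearest libraries of the genotypes did. The fall was 0.53 ± 0.12 on the log2 scale (1.44-fold lower, adjusted p = 0.0137). NDE2 (YDL085W, chrIV:303211-304848), the second external enzyme, was measured at 67.1 and 57.9 CPM against 59.3 and 54.5 CPM (-0.12 ± 0.13, adjusted p = 0.694). NDI1 (YML120C, chrXIII:28266-29807), which oxidises NADH of the matrix, was at 27.1 and 23.0 CPM against 20.9 and 24.3 CPM (-0.15 ± 0.19, adjusted p = 0.718). For both genes the genotypes overlapped. NDE1 was by far the most abundant of the group at 236 ± 40.5 RPKM in wild type, against 30.5 ± 3.17 for NDE2 and 12.8 ± 1.48 for NDI1. The summed level of the group was 526 and 632 CPM in wild type and 446 and 394 CPM in the deletion, and NDE1 carried most of that difference. The neighbours of NDE1 did not pass, though both lay below 0: TIF34 was at -0.28 (adjusted p = 0.119) and YMR144W at -0.16 (adjusted p = 0.748). The call of NDE1 was also made by DESeq2 (adjusted p = 0.00736). It was lost with total gene counts (-0.43, adjusted p = 0.0573), with the authors' library constant (-0.54, adjusted p = 0.439) and without deletion replicate 2 (-0.43, adjusted p = 0.141), and the log2 fold change was -0.33, still past the test, without wild-type replicate 2.

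Complex II is the succinate dehydrogenase that joins the citric acid cycle to the respiratory chain. Of its 4 genes 0 passed the test, against 4.74% of all genes tested, and the median of the complex was 0.19. SDH2 (YLL041C, chrXII:53131-53931), the iron-sulfur subunit, had the largest difference, with 53.3 and 50.7 CPM in wild type against 61.0 and 75.5 CPM in the deletion (0.38 ± 0.14, adjusted p = 0.140). It was the only one of the 4 whose genotypes did not overlap. SDH3, a membrane anchor that binds heme and ubiquinone, was the highest per length at 63.6 ± 23.2 RPKM in wild type and had the widest gap between wild-type replicates of all members, 59.2 and 34.9 CPM. Without wild-type replicate 1 it was called higher (0.71, adjusted p = 0.00113), and without wild-type replicate 2 its log2 fold change was -0.05. SDH1, the flavoprotein subunit, was the lowest per length at 21.1 ± 4.27 RPKM, and SDH4, the other anchor, was at 32.7 ± 6.92 RPKM.

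Complex III carries electrons from ubiquinol to cytochrome c. Here 1 of 9 genes rose and 0 fell, against 1.68% and 3.06% of all genes tested, and the median of the complex was 0.17. QCR8 (YJL166W, chrX:106434-106718), a small subunit that contacts cytochrome b, stood at 36.5 and 27.3 CPM in wild type and at 48.2 CPM in each deletion library. Both deletion libraries were higher than either wild-type library. Its rise was 0.62 ± 0.16 on the log2 scale (1.53-fold, adjusted p = 0.0344). The call was lost when any library except wild-type replicate 1 was left out (adjusted p = 0.223 without the second wild-type library, and 0.115 and 0.0737 without the first and the second deletion library) and with the authors' library constant (adjusted p = 0.366), at log2 fold changes of 0.41 to 0.62. DESeq2 gave it an unadjusted p of 0.0173. The neighbours of QCR8 did not pass: ERG20, of isoprenoid synthesis, was at -0.19 (adjusted p = 0.312) and the kinase gene HAL5 at -0.12 (adjusted p = 0.742).

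QCR10 (YHR001W-A, chrVIII:107826-108122), an accessory subunit, had the largest fold change of complex III and did not pass the test. It had 16 and 20 reads in wild type against 56 and 32 in the deletion, or 7.89 and 7.19 CPM against a mean of 12.5 ± 0.761 CPM (0.75 ± 0.27, adjusted p = 0.124). The genotypes did not overlap. It was also the lowest per length, at 13.1 ± 0.862 RPKM in wild type. Its intron of 63 bases was counted 1 and 2 times in wild type and 9 and 7 times in the deletion, and its longer exon of 228 bases 10 and 12 times against 38 and 21 times. QCR9, which also has an intron, of 213 bases, had 2 and 0 intron reads against 4 and 4, and its gene level overlapped between the genotypes (-0.02 ± 0.16, adjusted p = 0.961). These counts are too small for a comparison of splicing.

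The other subunits of complex III did not pass. QCR7, a small subunit needed for assembly, was the highest per length at 96.7 ± 15.2 RPKM, and its level was 65.6 and 52.5 CPM against 69.6 and 75.5 CPM (0.30 ± 0.14, adjusted p = 0.226). RIP1, the Rieske iron-sulfur protein, and COR1, a core subunit, also had both deletion libraries above wild type, at log2 fold changes of 0.25 and 0.17. QCR2, the other core subunit, had both below, at 57.7 and 60.4 CPM against 46.3 and 52.7 CPM (-0.27 ± 0.14, adjusted p = 0.285). The core subunits COR1 and QCR2, which pair in the complex, thus had log2 fold changes of opposite sign, and neither passed. CYT1, which encodes cytochrome c1, was at 66.1 and 59.0 CPM against 57.5 and 67.6 CPM (-0.01 ± 0.14), and QCR6, the acidic hinge subunit, had a log2 fold change of 0.10 ± 0.14.

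Cytochrome c, the soluble carrier between complexes III and IV, is encoded by CYC1 for aerobic and CYC7 for hypoxic or stress conditions. Both genes were higher in both deletion libraries, and neither passed the test. CYC1 (YJR048W, chrX:526335-526664) was at 11.8 and 18.3 CPM in wild type and 22.3 and 20.2 CPM in the deletion (0.46 ± 0.22, adjusted p = 0.263). CYC7 (YEL039C, chrV:79636-79977, - strand) was at 24.7 and 27.7 CPM against 32.6 and 30.3 CPM (0.26 ± 0.17, adjusted p = 0.430). CYC7, known as the minor form in aerobic cells, had more reads than CYC1 in every library. Per length the ratio of CYC7 to CYC1 averaged 1.71 in wild type and 1.41 in the deletion. As log2 ratios these were 0.99 and 0.52 in wild type against 0.47 and 0.51 in the deletion, so the deletion libraries lay just under the lower wild-type one. The difference, -0.26, rested on wild-type replicate 1 and was -0.03 without it. A two-sided exact permutation test gave p = 0.333, the smallest that 2 libraries against 2 allow. The coding sequences of the pair were 78.1% identical, with a longest shared run of 35 bases, and how the authors treated reads that match both is not given in the sources used here.

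In complex IV, cytochrome c oxidase, 1 of 9 genes rose and 0 fell, against 1.68% and 3.06% of all genes tested. The median of the complex was 0.14. COX5B (YIL111W, chrIX:155222-155765), the form of subunit V that is known to replace COX5A when oxygen is scarce, had the largest rise of all 39 members. It was at 23.2 and 24.1 CPM in wild type and at 37.7 and 52.7 CPM in the deletion (0.89 ± 0.19, 1.86-fold, adjusted p = 0.00962). Both deletion libraries were well above wild type, and they also differed from each other more than for any other member (0.48 on the log2 scale). Nearly all reads fell in the exon of 455 bases, with 44 and 66 against 157 and 136, while the intron of 88 bases had 2 and 0 against 1 and 1. Its neighbours did not pass: HOS4 was at 0.01 (adjusted p = 0.986) and HPM1 at -0.07 (adjusted p = 0.801). The rise of COX5B was called in every fit except that without deletion replicate 2 (0.67, adjusted p = 0.0747) and DESeq2, which gave it an unadjusted p of 0.00108 and no adjusted one.

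COX5A (YNL052W, chrXIV:531725-532186), the aerobic isoform, was at 78.9 and 71.6 CPM in wild type and 85.9 and 100.1 CPM in the deletion (0.30 ± 0.13, adjusted p = 0.193). It too was higher in both deletion libraries, and it did not pass the test. COX5A remained the more abundant form in every library. The log2 ratio of COX5B to COX5A per length was -1.49 and -1.29 in wild type against -0.91 and -0.65 in the deletion, that is, a mean ratio of 0.382 against 0.584. The genotypes did not overlap, and the difference of 0.61 was larger than the spread between replicates (SD 0.14 and 0.18). The exact permutation test, two-sided, again gave p = 0.333, its smallest possible value. Together the pair summed to 142 and 134 RPKM in wild type and 175 and 218 RPKM in the deletion. The coding sequences of the pair were 69.3% identical with no shared run over 11 bases.

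**Figure D3:**
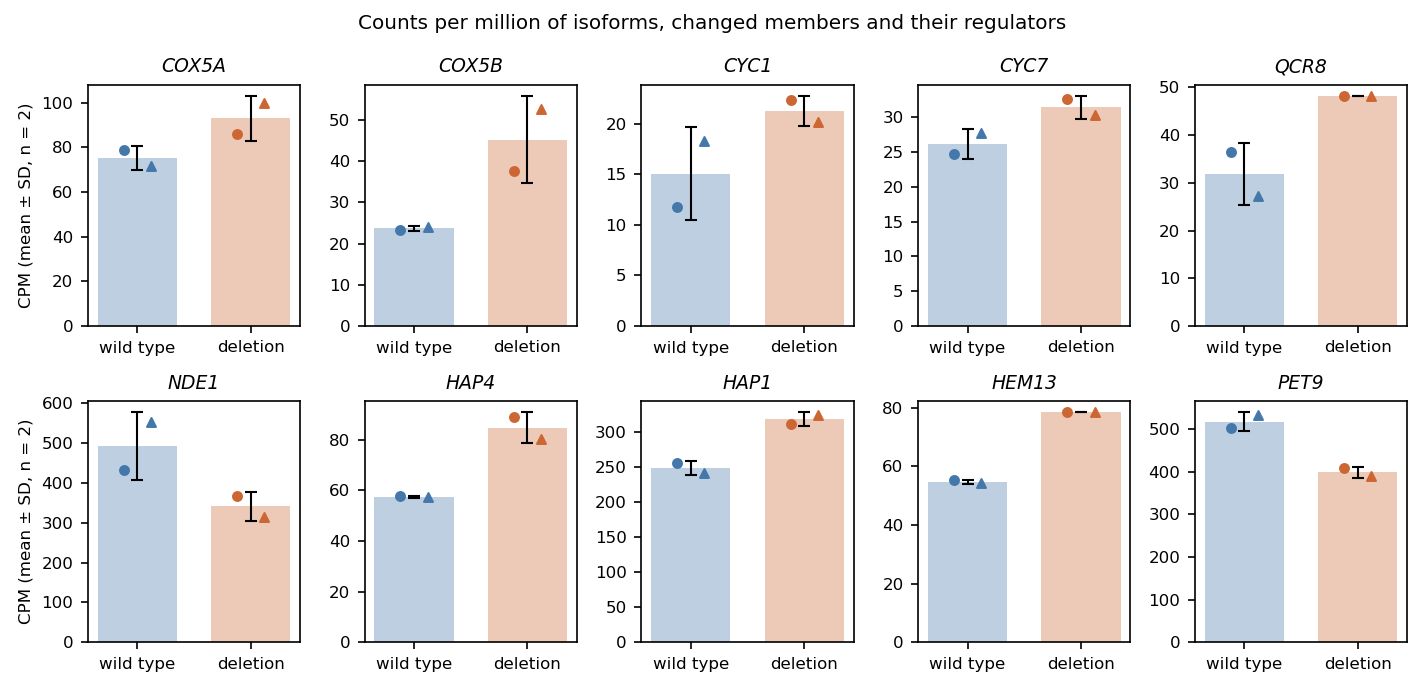
CPM in each library (points) with the mean (bars) and SD of 2 libraries (error bars) for the isoform pairs, QCR8, NDE1 and 4 genes of regulation, heme synthesis and nucleotide exchange. COX5A, COX5B, CYC1, CYC7, QCR8, HAP4, HAP1 and HEM13 are higher and NDE1 and PET9 lower in both deletion libraries, of which COX5A, CYC1, CYC7 and HAP1 did not pass the test.

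The remaining subunits of complex IV did not pass the test. COX13, a small subunit, was nearly as high as COX5A per length (99.2 ± 6.76 RPKM in wild type) and had a log2 fold change of 0.20 ± 0.12. COX7 was the lowest at 18.2 ± 5.87 RPKM, from 11 to 35 reads per library. COX4 and COX6, which are needed for assembly of the enzyme, had log2 fold changes of 0.05 and 0.04, and COX12 one of 0.26. COX8 and COX9 were at -0.09 and -0.21. The 8 genes other than COX5B thus lay between -0.21 and 0.30.

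Of the 12 genes of ATP synthase, the rotary enzyme that makes ATP, 0 passed the test, against 4.74% of all genes tested. The median of ATP synthase was 0.16. Its genes took 51.3% of all reads of the members in wild type and 51.5% in the deletion, with summed levels of 1668 and 1725 CPM against 1680 and 1725 CPM. ATP5, the stalk subunit that confers oligomycin sensitivity, was the highest member per length at 267 ± 15.0 RPKM in wild type and 256 ± 9.97 RPKM in the deletion. ATP20, a peripheral subunit of the membrane part, was the lowest of the complex at 43.9 ± 10.3 RPKM. Within the catalytic head, the alpha and beta subunits ATP1 and ATP2, present in equal numbers in the enzyme, were at 159 ± 5.77 and 219.8 ± 24.9 RPKM, and both had deletion libraries below wild type with TMM scaling, while with total gene counts ATP1 had a log2 fold change of 0.01. ATP1 was at 335 and 352 CPM against 318 and 324 CPM (-0.10 ± 0.10, adjusted p = 0.639). ATP2 was at 402 and 472 CPM against 364 and 385 CPM (-0.23 ± 0.10, adjusted p = 0.232), and it was called lower without wild-type replicate 1 (-0.33, adjusted p = 0.0199).

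The central stalk genes lay on the other side of 0. They are also shorter, at 1201 bases for ATP3, 724 for ATP16 and 327 for ATP15, against 2157 for ATP1 and 1989 for ATP2. The part of gene length in this contrast was not tested. ATP16, the delta subunit, had the largest fold change of the enzyme, with 47.9 and 46.8 CPM in wild type and 59.3 and 67.6 CPM in the deletion (0.41 ± 0.14, adjusted p = 0.0919), and was called higher with total gene counts (0.52, adjusted p = 0.0399). ATP3, the gamma subunit, was at 145 and 146 CPM against 174 and 170.3 CPM (0.25 ± 0.11, adjusted p = 0.197), and ATP15, the epsilon subunit, at 41.9 and 33.8 CPM against 49.8 and 43.7 CPM (0.33 ± 0.16, adjusted p = 0.246). For all 3 the deletion libraries were above wild type, and none passed the test. The remaining genes, ATP4, ATP5, ATP7, ATP14, ATP17, ATP18 and ATP20 of the peripheral stalk, membrane part and dimer interface, ranged from -0.06 to 0.38.

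The summed CPM of each complex is given without a test of differences between complexes. Complex II went from 174.7 ± 3.42 to 204 ± 14.7 CPM, complex III from 453.5 ± 12.5 to 504.2 ± 33.9 CPM and complex IV from 365.1 ± 7.07 to 420.1 ± 26.1 CPM. In each of these 3 both deletion libraries were above both wild-type libraries. ATP synthase was at 1696 ± 40.6 against 1703 ± 32.2 CPM and overlapped, and the NADH dehydrogenases went from 579 ± 75.0 to 419.9 ± 36.6 CPM with both deletion libraries below. All 39 members together summed to 3310 ± 99.2 CPM in wild type and 3303 ± 67.3 CPM in the deletion.

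Among the regulators, HAP4 rose. HAP4 (YKL109W, chrXI:232227-233891) encodes the activating and glucose-repressed subunit of the Hap2/3/4/5 complex, and it stood at 57.7 and 57.2 CPM in wild type against 88.9 and 80.3 CPM in the deletion (0.57 ± 0.13, adjusted p = 0.0149). Its call was lost with DESeq2 (adjusted p = 0.0608), with the authors' library constant (adjusted p = 0.459) and without deletion replicate 1 (0.48, adjusted p = 0.177). HAP1, a heme-responsive activator of CYC1 and CYC7 that is impaired by a transposon insertion in the S288C lineage, was at 256 and 242 CPM against 311 and 325 CPM (0.35 ± 0.10, adjusted p = 0.0531). The genotypes of HAP1 did not overlap. It was called higher with total gene counts (adjusted p = 0.0127), a mean count of 50 or more (0.0378), limma-voom (0.0480), the replicate block (0.0340) and without wild-type replicate 1 (0.0112), but not in the other fits, whose adjusted p ran from 0.0501 to 0.844. ROX1, the repressor of hypoxic genes, was at 25.2 and 23.0 CPM against 27.5 and 25.4 CPM (0.15 ± 0.18, adjusted p = 0.704). Of the 10 regulators tested, 1 rose, 0 fell and 9 had a log2 fold change above 0, where 1.68% of all genes tested rose and 50.6% lay above 0.

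Of the wider pathway, 4 of 116 tested genes rose, 2 fell and 110 did not pass, with a median log2 fold change of 0.14 and 69.0% above 0. Of all genes tested, 1.68% rose, 3.06% fell and 50.6% lay above 0. None of the 30 tested genes for assembly of complex IV, the 12 for complex III, the 12 for ATP synthase, the 6 for complex II and its paralogs, the 9 for ubiquinone synthesis or the 5 further ATP synthase subunits passed, while 4 of the complex IV assembly genes were higher at an unadjusted p under 0.05, as were 8.53% of all genes tested. Besides HAP4, HEM13 (chrIV:546642-547628), which encodes the oxygen-requiring coproporphyrinogen oxidase of heme synthesis and is known to be repressed by Rox1, rose from 54.8 ± 0.67 to 78.4 ± 0.0258 CPM (0.52 ± 0.13, adjusted p = 0.0236). It was 1 of 8 heme genes, and 0 of them fell. PET9 (chrII:163041-163997), the major ADP/ATP carrier of the inner membrane, which exports the ATP made there, was at 503 and 533 CPM in wild type and at a mean of 399 ± 13.0 CPM in the deletion, with both libraries below wild type (-0.38 ± 0.10, adjusted p = 0.0307). Both calls were lost when either deletion replicate was left out and with the authors' library constant, that of HEM13 also with DESeq2 and that of PET9 also with total gene counts.

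Other genes listed as induced in low oxygen did not share 1 direction. Of 12 tested outside the members, 3 rose and 1 fell, against 1.68% and 3.06% of all genes tested. The median of the 12 was 0.02. HEM13 was among the 3, with OLE1, the fatty acid desaturase (0.73 ± 0.10, adjusted p = 9.34e-05), and TIR1, a cell-wall mannoprotein (1.19 ± 0.17, adjusted p = 0.000214). AUS1, a sterol importer, fell by 0.69 (adjusted p = 0.0372), a call that was lost with total gene counts, with the authors' constant, and when replicate 1 of either genotype was left out. The call of OLE1 was lost with the authors' constant alone. ANB1, the hypoxic translation factor next to CYC1, was at 10.4 and 10.1 CPM against 12.1 and 14.2 CPM and did not pass. AAC3, HMG2 and SUR2 did not pass either, at -0.35, -0.27 and -0.31, each with both deletion libraries below wild type. Of the 12 genes, 4 had both deletion libraries above wild type and 4 below, against 24.9% and 24.4% of all genes tested. The 12 also hold CPR1 (YDR155C), whose place among low-oxygen genes is uncertain, at 0.01 (adjusted p = 0.953).

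The mitochondrially encoded subunits were barely sampled. COX1 had 113 to 252 reads in a library and a log2 fold change of -0.04 ± 0.13 (adjusted p = 0.909). COX2 had 9, 15, 10 and 6 reads, at 4.44 and 5.40 CPM in wild type against 2.33 and 2.24 CPM in the deletion (-1.11 ± 0.42, adjusted p = 0.140). The other 5, COX3, COB, ATP6, ATP8 and OLI1, did not pass the filter on low counts, so no comparison of nuclear with mitochondrial subunits was made.

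The members share an upstream sequence feature that did not enter their choice. In the 250 bases before the start, CCAAT or its complement ATTGG occurred in 32 of 39 members (82.1%) and in 2069 of 5790 nuclear protein-coding promoters of the gene tables (35.7%). All 4 complex II genes had it, 8 of 9 in complex IV, 11 of 12 in ATP synthase, 7 of 9 in complex III and 2 of 3 NADH dehydrogenase genes, but neither cytochrome c gene. All 3 changed members had it. The median log2 fold change was 0.16 for the 32 members with it and 0.05 for the 7 without it. Over all genes tested the medians were 0.0 with it and 0.01 without it. The 1969 tested genes with it were called higher in 1.73% and lower in 2.54%, against 1.63% and 3.37% without it. ATTGTT or its complement occurred in 16 members (41.0%) and 29.1% of all promoters, and all 3 changed members were among the 16. Over all genes tested, those with ATTGTT were called higher in 2.01% and lower in 3.14%, against 1.52% and 3.04% without it. The Hap1 motif, a CGG repeat with TA between the repeats, was found in 1 member, QCR6, and in 6 promoters in all. Matches to CCAAT and ATTGTT can overlap at their ends, which they did not in the 4 windows shown, and no match says only that these letters are not in this window.

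**Figure D4:**
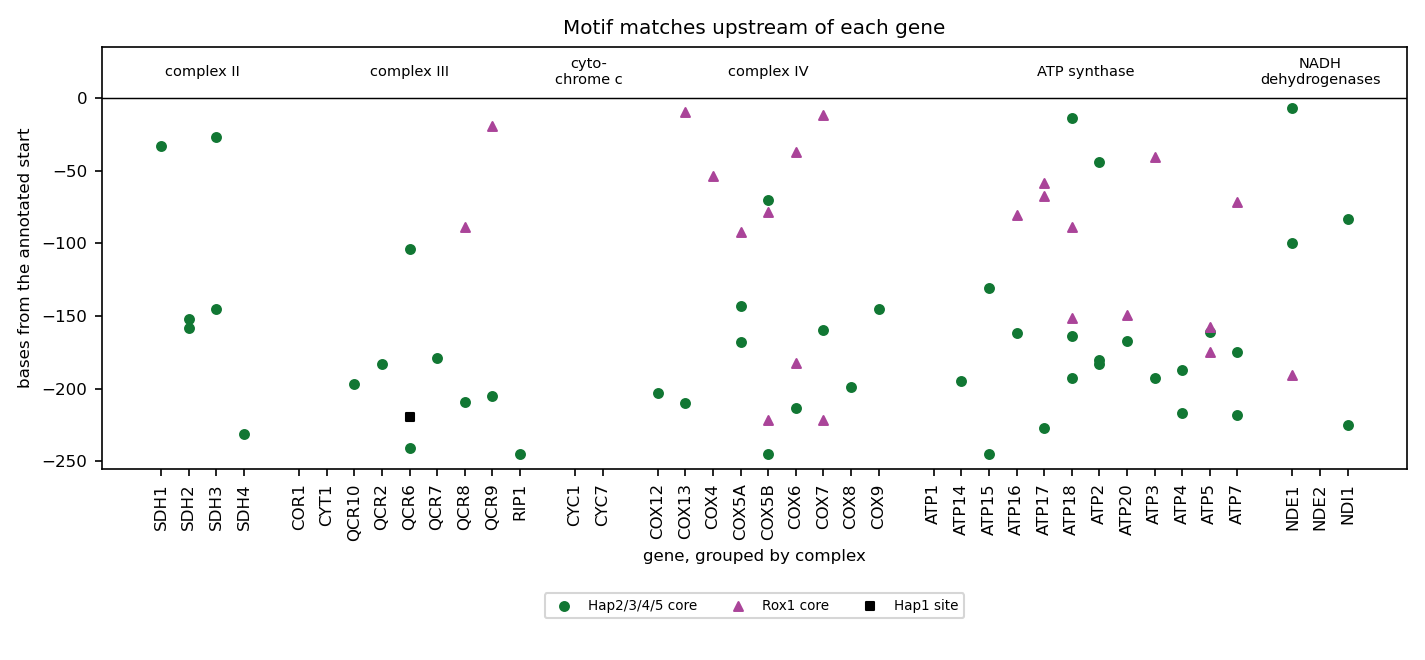
Midpoint of each motif match, in bases before the annotated start, for the 39 genes grouped by complex (circles for the CCAAT core, triangles for ATTGTT, a square for the Hap1 motif). Matches to the CCAAT core are found in 32 genes, mostly more than 100 bases upstream, and both cytochrome c genes have none.

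The calls rested on the particular libraries. Leaving out 1 library at a time gave 0 to 4 members called higher and 0 to 2 called lower; the fit without deletion replicate 2 called none, and that without wild-type replicate 1 called 4 higher (SDH3, QCR7, QCR8 and COX5B) and 2 lower (ATP2 and NDE1). Called directions did not reverse for COX5B, QCR8 or NDE1 in any fit that was run.

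**Figure D5:**
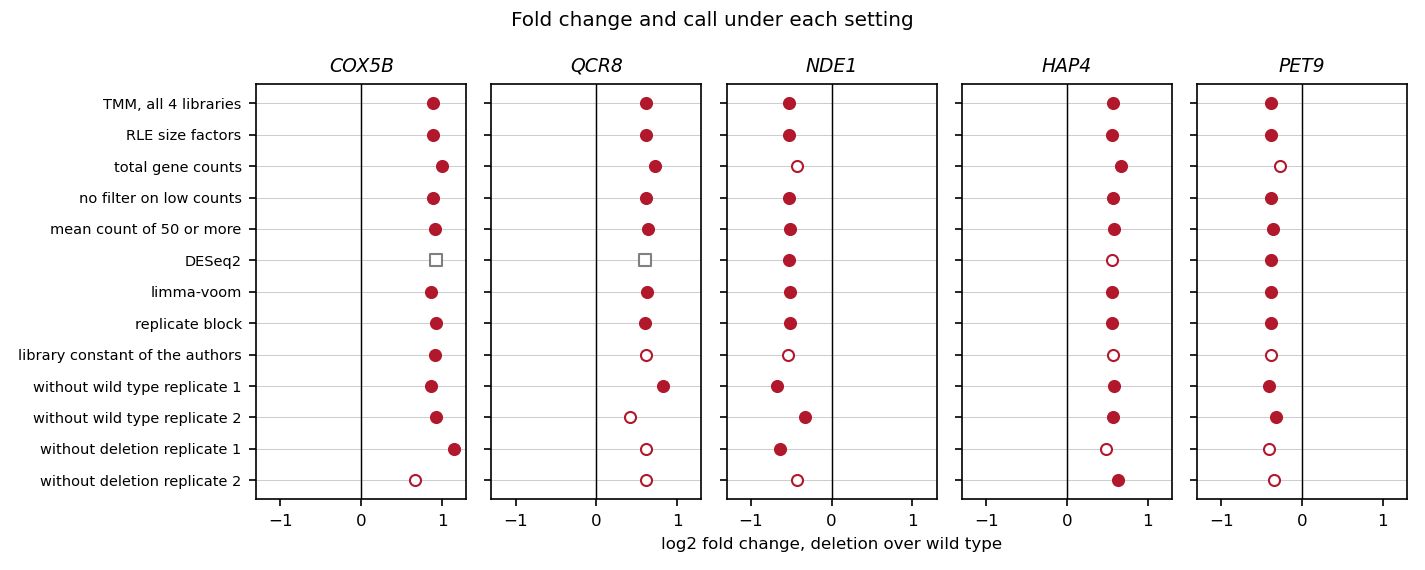
Log2 fold change of COX5B, QCR8, NDE1, HAP4 and PET9 under each setting (rows), with filled circles for an adjusted p under 0.05, open circles for one above it and squares where DESeq2 gave none. Every point keeps its side of 0, and COX5B is filled in all rows except DESeq2 and the fit without deletion replicate 2.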

How the data were processed

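Total RNA of 4 libraries was sequenced, 2 per genotype. Per the labels' protocols, hot acid phenol served for extraction, and an NEBNext kit for small RNA for the libraries, which an Illumina HiSeq read. CASAVA 1.8, TopHat and the build sacCer3 are named, per the submitters' processing notes. Not given in the sources used here are the counting program, the annotation, the use of strand and the handling of reads that map to several places. The deposited tables hold raw read counts for 5816 genes and 793 intron or exon features, with their lengths, per the file headers. The authors also deposited a normalized signal, equal to count over length over 1 constant per library (13.98 and 15.53 in wild type, 25.11 and 17.43 in the deletion, in units of 1e6 reads), used here only as an alternative scaling.

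Groups came from the titles. Counts were tested with edgeR 4.0.16 in R 4.3.3 (quasi-likelihood test, TMM factors, filterByExpr at a minimum of 10 reads). The design held genotype alone, and the Benjamini-Hochberg threshold was 0.05. The fits were first run on simulated counts with the same dispersion in every gene and both genotypes. Because the replicates here differed unequally, that run does not show how accurate the calls in these libraries are. CPM and RPKM use TMM-scaled totals. RPKM uses the deposited length, so reads near ends and introns can shift levels between genes. Alternatives were RLE factors, total counts, no filter, a mean count of 50 or more, DESeq2 1.42.0, limma-voom (limma 3.58.1), a replicate block, each library left out and, chosen after seeing the data, the authors' constant. Alignments used Biopython 1.88. Of the gene identifiers, 5813 were found in RefSeq R64, which gave coordinates (1-based) and promoters; 0 members overlapped another annotated gene. The text names members past the test, the 4 isoform genes, the NADH dehydrogenases, the highest, lowest and most changed gene per complex, called pathway genes, HAP1, HAP4, ROX1 and CHD1. Other members and genes that it names were chosen after their values were seen. Members and lists were chosen with earlier results of these data known.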

Additional observations from a re-analysis of the deposited data

How the results depend on the processing

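Over all genes, 92 were higher and 168 lower; the counts were 176 and 65 with total gene counts, 29 higher with DESeq2, 165 and 259 with a replicate block, 33 and 28 with the authors' library constant, and 58 to 213 higher and 70 to 364 lower with 1 library left out. Members called higher were 2, but 3 with total gene counts (ATP16 besides COX5B and QCR8), 0 with DESeq2, 1 with the authors' constant and 0 to 4 with 1 library left out; members called lower were 1, but 0 with total gene counts and with the authors' constant and 0 to 2 with 1 library left out. The replicate numbers are shared by name only (correlation of same-numbered deviations 0.0141), and the replicate block left the members' counts at 2 and 1. Total gene counts gave medians of 0.26 for the members, 0.30 for complex II and 0.26 for ATP synthase.

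With 1 library left out the medians ranged from 0.10 to 0.18 for the members, 0.12 to 0.27 for complex II, 0.07 to 0.29 for complex III, 0.11 to 0.23 for complex IV, 0.21 to 0.62 for cytochrome c, 0.11 to 0.24 for ATP synthase and -0.27 to -0.04 for the NADH dehydrogenases. The log2 ratio difference ranged from 0.48 to 0.74 for COX5B to COX5A and from -0.49 to -0.03 for CYC7 to CYC1. A lone library is there assumed to vary like the other genotype's pair. The fits without a wild-type library thus took their spread from the deletion pair, whose replicates differed less, so their calls are the less secure.

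Log2 fold changes that turned sign were none of the called ones. With total gene counts they were 0.05 for SDH4, 0.10 for CYT1, 0.08 for QCR9, 0.01 for COX8, 0.01 for ATP1 and 0.04 for ATP5, and CYT1 was at 0.01 with a mean count of 50 or more and at 0.00 with the authors' constant. With 1 library left out the ranges that crossed 0 were -0.10 to 0.32 for SDH1, -0.05 to 0.71 for SDH3, -0.22 to 0.22 for SDH4, -0.12 to 0.12 for CYT1, -0.03 to 0.30 for QCR6, -0.05 to 0.03 for QCR9, -0.08 to 0.20 for COX4, -0.10 to 0.57 for COX7, -0.39 to 0.21 for COX8, -0.11 to 0.01 for ATP5 and -0.06 to 0.42 for ATP20. The cause of these shifts was not tested. Depth limits the smallest genes, with 11 reads in 1 library for COX7.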
